A study of Mus musculus with 23 samples.

Results

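Matricellular protein genes were examined across all libraries of a single-cell RNA-seq study of mouse mesenchymal stem cells (MSCs). The set was fixed by gene symbol and holds Sparc, Spp1, Thbs1, Thbs2, Ctgf, Cyr61, Wisp1, Wisp2, Postn and Tnc. These 10 symbols were all found among the 23284 rows of the expression table. The 23 libraries comprised 16 single mMSCs, 5 single HL-1 cardiomyocytes (HL1cm) and 1 population control of each cell type (mMSC-PC and HL1cm-PC). The mMSCs were bone marrow cells bought as a stock from 3-month-old male C57BL mice, labelled as strain C57BL/6J and used at passages 6 to 11. HL-1 is an established mouse atrial cardiomyocyte line, labelled with the same strain and used at passages 70 to 85; it served as a control cell type and not as a matched treatment. The mMSCs were grown on gelatin and the HL-1 cells on fibronectin with gelatin, in different media and to different confluence, so cell type and culture cannot be told apart. No cell received a treatment or carried an engineered allele that the labels name. Dead cells were left out by a viability stain, and the HL1cm carried a green dye that marked them in the shared capture device.

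Matricellular proteins are secreted into the extracellular matrix but do not build its fibres. They bind integrins, syndecans, CD44 and growth factors, and so change how cells attach, spread and respond to signals. Osteopontin and SPARC are also known from bone, where both bind mineral and collagen or cell surfaces. Ctgf and Cyr61 are textbook targets of the YAP and TEAD transcription factors, Thbs1 is a known activator of latent TGF-beta, and Postn and Tnc are typical of remodelling and wounded tissue.

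Values were FPKM, in which the fragments of a gene are divided by its exon length and by the mapped fragments of the library. Levels can thus be set against each other between genes. Between libraries, some counts below changed with the scaling, so 3 other scalings were used beside FPKM. For log2 values, anything under 1 FPKM was set to 1. Separate cultures are named in no source used here, so each cell type is 1 sample and no test was made; the SD given with a mean is the spread between single cells. The FPKM table gives no depth for a value, and read totals were not used here. An exact 0 need not mean an absent transcript, since Tmsb4x (thymosin beta 4), with a median of 5472 FPKM over the libraries, was listed at 0 in HL1cm3; members with zeros are therefore given library by library and without an SD. Tmsb4x was named after its values were seen. Single mMSCs had 5198 to 7641 genes above 0 and HL1cm 6788 to 7226, whereas mMSC-PC had 10279 and HL1cm-PC had 10157. The fewest were in mMSC9 (5198) and mMSC15 (5902). The largest single row, in most cells a microRNA or small nucleolar RNA gene, took 3.02% to 62.5% of all FPKM in an mMSC. Bone marrow MSC markers fitted the labels, with 10 of 10 higher in mMSCs and a summed level of 2605 to 9265 FPKM against 23.4 to 218 in HL1cm. HL-1 cardiomyocyte markers were lower in mMSCs for 8 of 8 genes, with sums of 0 to 65.4 FPKM against 32770 to 59950.

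The 10 members were mostly higher in mMSCs. This did not hold for 19 other matricellular genes, given below, of which 3 were higher by more than 1 (median difference 0). On the log2 scale, 9 of the 10 had a mean more than 1 higher in mMSCs than in HL1cm, where 18.1% of the 14036 genes that reached 1 FPKM in any library did so. None was lower by more than 1, against 18.7% of all genes. Every mMSC was above every HL1cm for 4 genes, Spp1, Thbs1, Postn and Tnc, against 1.91% of all genes. The 4 genes Thbs1, Wisp2, Postn and Tnc had 0 FPKM in each HL1cm and in their population control, which held for 16.7% of all genes. The median difference over the 10 genes was 4.38 on the log2 scale, against 0.048 over all genes, and depends on the limit of 1 FPKM for these 4. With libraries scaled by median-of-ratios factors, the count higher by more than 1 was 7, against 15.7% of all genes, since Sparc (0.80) and Cyr61 (0.82) then fell short of the limit. In FPKM, Sparc also fell short without HL1cm3 (0.74) or HL1cm5 (0.98), and Cyr61 without HL1cm1 (0.54) or HL1cm3 (0.58), so the count rests on 7 genes and these 2 are near the limit.

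**Figure D1:**
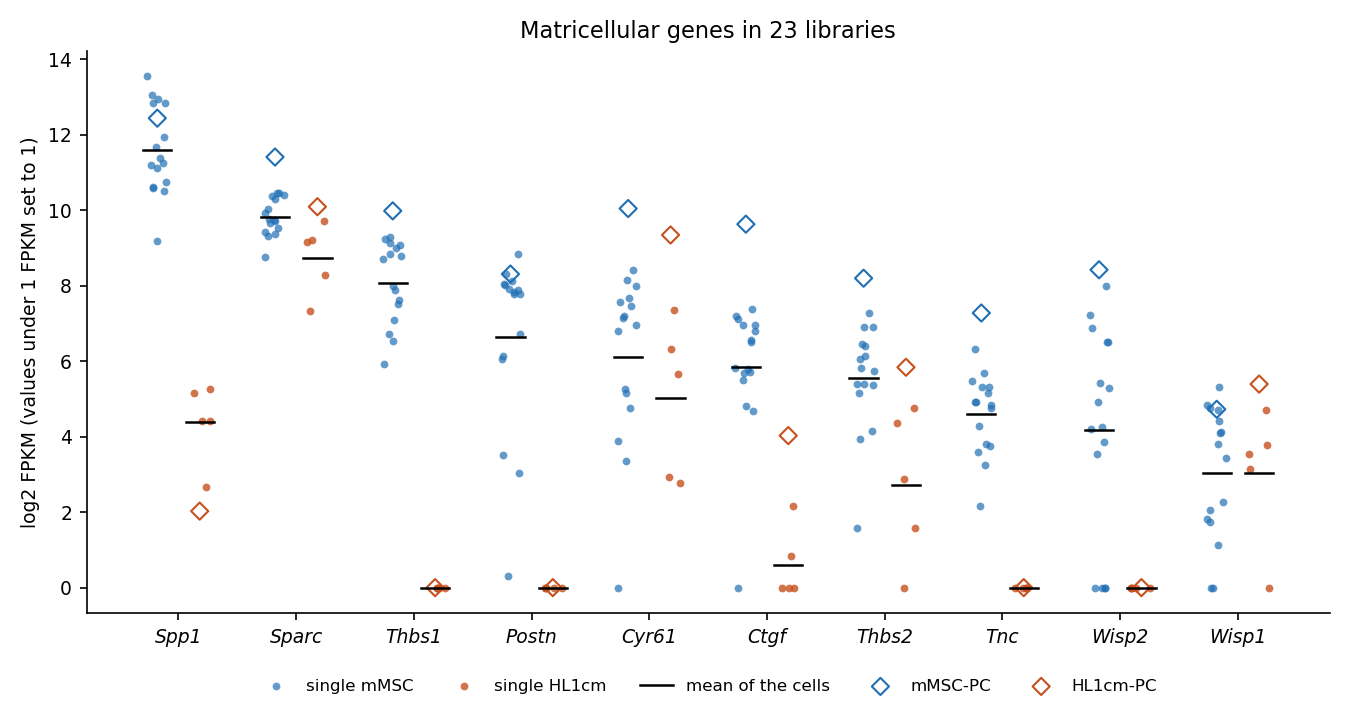
Log2 FPKM (y axis, values under 1 FPKM set to 1) of the 10 matricellular genes (x axis, ordered by their mean in mMSCs). Filled points are single mMSCs (blue, n = 16) and single HL1cm (orange, n = 5), bars are means over the cells, and open diamonds are the population controls. Spp1 lies at the top in mMSCs and low in HL1cm, whereas Wisp1 has the same mean in both.

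By level in mMSCs, the mean log2 FPKM fell from 11.59 for Spp1 to 9.82 for Sparc, 8.08 for Thbs1, 6.64 for Postn, 6.11 for Cyr61, 5.84 for Ctgf, 5.54 for Thbs2, 4.60 for Tnc, 4.16 for Wisp2 and 3.03 for Wisp1. The first steps of this order exceeded the spread between cells. Spp1 was above Sparc in 15 of 16 mMSCs, and Sparc was above Thbs1 in 16 of 16. Further down, each step was smaller than the larger SD of the neighbouring genes. Cyr61 was above Ctgf in 10 of 16 cells and Tnc above Wisp2 in 9 of 16, so these neighbours were not separated. In HL1cm the order was different, with Sparc the highest of the 10 in 5 of 5 cells.

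Sparc encodes osteonectin, a collagen-binding glycoprotein that acts in collagen assembly (chromosome 11, 55394159 to 55420080, GRCm38.p6, RefSeq). In mMSCs it ran from 436 FPKM in mMSC4 through a median of 863 to 1408 in mMSC14. HL1cm1 to HL1cm5 had 567, 833, 161, 590 and 311 FPKM. The groups overlapped, with 9 of 16 mMSCs above the highest HL1cm. The mean log2 level was 9.82 ± 0.49 (SD, n = 16) in mMSCs and 8.73 ± 0.94 (SD, n = 5) in HL1cm, a difference of 1.09. Sparc had the smallest spread between mMSCs of the 10 genes, and was the one member with an SD under 1. Of all genes that reached 1 FPKM in at least 2 mMSCs, 72.8% had an SD over 1.

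The bases before the annotated Sparc start are shown because this gene is high in both cell types. They are chr11:55420081-55420330 on the minus strand (GRCm38.p6, RefSeq), read 5′ to 3′ towards the start, with matches to the searched motifs in capitals.
Sparc: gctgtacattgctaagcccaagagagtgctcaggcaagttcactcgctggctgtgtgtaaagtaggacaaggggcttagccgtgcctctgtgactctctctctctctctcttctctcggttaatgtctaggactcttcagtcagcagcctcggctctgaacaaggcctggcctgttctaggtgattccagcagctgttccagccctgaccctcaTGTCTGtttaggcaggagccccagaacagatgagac
The capitals mark TGTCTG, the reverse strand of CAGACA, the core of a SMAD binding element, at -36 to -31. A further copy lies at 15 to 20, counted from 1 at the start, and is not printed.

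Spp1 encodes osteopontin, a phosphoprotein that binds integrins and CD44 and that bone cells, macrophages and stromal cells secrete (chromosome 5, 104435111 to 104441053). It ran from 578 FPKM in mMSC15 through a median of 2552 to 11947 in mMSC7. HL1cm1 to HL1cm5 had 38.5, 6.34, 21.2, 21.2 and 35.5 FPKM. All mMSCs were above all HL1cm, and the means differed by 7.21 on the log2 scale (11.59 ± 1.19, SD, n = 16, and 4.38 ± 1.04, SD, n = 5). By its median, Spp1 ranked 29 of 14036 genes in mMSCs. It was the highest of the 10 genes in 15 of 16 mMSCs and took 29.7% to 88.8% of their summed FPKM. The exception was mMSC15, where Sparc, at 874 FPKM, was above it.

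Macrophages and osteoblasts also make osteopontin, and their markers were read in the same cells. Of the 8 macrophage markers, Ptprc, Emr1, Lyz2 and Tyrobp were listed at 0 in all mMSCs. Cd14 was above 0 in 15 mMSCs, with a median of 62.5 FPKM, Csf1r in 8, up to 32.6 FPKM, Itgam in 2 and Cd68 in 1. Their summed level was 3.10 to 369 FPKM in mMSCs and 0 to 1.10 in HL1cm, higher in the cell type in which Spp1 was higher. Cd14, at up to 337 FPKM, had the largest median of the 8 markers in mMSCs, followed by Csf1r at 1.16 FPKM. Of the 6 osteoblast markers, Bglap, Ibsp and Dmp1 were listed at 0 in all mMSCs, Alpl was above 0 in 3, Phex in 2 and Sp7 in 1. Their sum was 0 to 29.9 FPKM in mMSCs and 12.2 to 169 in HL1cm. The part of either cell type in the Spp1 values was not tested.

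The Spp1 stretch below, chr5:104434861-104435110 on the plus strand (GRCm38.p6, RefSeq), is shown as that of the highest member, which was low in HL1cm.
Spp1: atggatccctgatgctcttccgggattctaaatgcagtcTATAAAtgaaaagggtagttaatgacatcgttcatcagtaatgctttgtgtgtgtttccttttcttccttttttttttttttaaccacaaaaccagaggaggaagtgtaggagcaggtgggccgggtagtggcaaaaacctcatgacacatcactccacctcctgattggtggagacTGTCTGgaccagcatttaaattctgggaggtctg
The capitals mark TATAAA at -211 to -206 and TGTCTG at -34 to -29. The match of TATAAA lies far from the start, unlike that of Cyr61 shown later.

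The thrombospondins are large multimeric glycoproteins that bind CD47 and CD36; Thbs1 and Thbs2 form the trimeric subgroup, known to limit blood vessel growth. Thbs1 (chromosome 2, 118111876 to 118127133) ran from 61.0 FPKM in mMSC5 through a median of 335 to 630 in mMSC9, and was listed at 0 in HL1cm1 to HL1cm5. Its mean in mMSCs was 8.08 ± 1.08 on the log2 scale (SD, n = 16), the highest level among the members at 0 in HL1cm. Thbs2 (chromosome 17, 14665500 to 14694262) was lower, from 3.00 FPKM in mMSC3 through a median of 55.1 to 155 in mMSC15. HL1cm1 to HL1cm5 had 0, 26.9, 7.39, 3.01 and 20.4 FPKM of Thbs2. The groups overlapped here, with 13 of 16 mMSCs above the highest HL1cm and a difference in means of 2.83 on the log2 scale (5.54 ± 1.40, SD, n = 16, and 2.71 with 1 HL1cm set to the limit). Across mMSCs, Thbs2 ran against the number of genes above 0 in the cell (r = -0.50, rho = -0.51, n = 16), and its highest values were in mMSC15 (155) and mMSC9 (120), the cells with the fewest. Without these cells r was -0.37 (rho = -0.28), and the part of library quality in the Thbs2 values was not tested. The paralogs were unlike in HL1cm, where Thbs1 was at 0 and Thbs2 above 0 in 4 of 5 cells.

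The CCN family holds Cyr61 (CCN1), Ctgf (CCN2), Wisp1 (CCN4) and Wisp2 (CCN5), modular proteins that bind integrins and heparan sulphate; WISP2 lacks the C-terminal domain of the others. Ctgf (chromosome 10, 24595442 to 24598683) was at 123, 55.7, 52.9, 45.4, 27.9, 93.6, 112, 138, 123, 56.6, 91.4, 168, 0, 51.3, 25.8 and 147 FPKM in mMSC1 to mMSC16, with a median of 74.0. HL1cm1 to HL1cm5 had 1.77, 0, 0, 4.45 and 0 FPKM. All mMSCs other than mMSC13 were above the highest HL1cm, and the means on the log2 scale were 5.84 and 0.60, with 3 HL1cm set to the limit.

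Cyr61 (chromosome 3, 145646971 to 145649985) was at 255, 177, 27.1, 35.4, 10.1, 140, 112, 125, 286, 203, 148, 341, 14.7, 38.1, 0 and 188 FPKM in mMSC1 to mMSC16, with a median of 132. Like Ctgf, it was highest in mMSC12. HL1cm1 to HL1cm5 had 6.82, 163, 7.68, 80.3 and 50.8 FPKM. The cell types overlapped widely, with 6 of 16 mMSCs above the highest HL1cm. The means on the log2 scale, 6.11 and 5.01, differed by 1.10, less than the range within either group. Ctgf and Cyr61, both known YAP targets, thus differed in HL1cm, where Cyr61 was above Ctgf in every cell.

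The bases before the start of Cyr61, chr3:145649986-145650235 on the minus strand (GRCm38.p6, RefSeq), are shown because they hold the TEAD core motif GGAATG.
Cyr61: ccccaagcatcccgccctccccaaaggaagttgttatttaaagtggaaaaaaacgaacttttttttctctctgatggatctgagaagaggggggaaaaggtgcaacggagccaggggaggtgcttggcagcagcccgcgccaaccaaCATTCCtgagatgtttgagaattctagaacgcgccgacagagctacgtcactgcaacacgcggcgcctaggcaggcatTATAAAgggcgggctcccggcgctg
The capitals mark CATTCC, the reverse strand of GGAATG, at -103 to -98, and TATAAA at -25 to -20. The windows searched ran from 250 bases before to 50 after the start and were found for 6 members, Sparc, Spp1, Thbs2, Cyr61, Postn and Tnc. Of these 6 windows, 1 held GGAATG on either strand, 4 held CAGACA, 4 held TATAAA and 0 held a CArG box, the site of serum response factor. In the 32851 RefSeq windows of the same length, the shares were 14.7%, 21.0%, 13.6% and 1.63%. The motifs are distinct and their matches in the printed stretches do not overlap.

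Wisp1 (chromosome 15, 66891369 to 66923201), a WNT-induced member of the family, was low and alike in both cell types. In mMSC1 to mMSC16 it was at 0, 3.34, 13.9, 3.52, 21.3, 26.8, 17.3, 28.8, 0, 10.7, 26.0, 4.81, 17.1, 40.0, 4.12 and 2.2 FPKM, with a median of 12.3. HL1cm1 to HL1cm5 had 11.6, 25.9, 0, 13.8 and 8.76 FPKM. The mean on the log2 scale was 3.03 in both cell types, and 4 of 16 mMSCs were above the highest HL1cm. It was the 1 member whose means differed by less than 1 in FPKM. Across mMSCs, its level went with the number of genes above 0 in the cell (r = 0.66, rho = 0.69, n = 16), a measure of the library as much as of the cell; its part in the Wisp1 values was not tested. Without mMSC9 and mMSC15, r was 0.64.

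Wisp2 (chromosome 2, 163820752 to 163833146) had the most mMSCs at 0 of the 10 genes. In mMSC1 to mMSC16 it was at 0, 39.3, 30.5, 19.2, 0, 117, 150, 11.6, 0, 254, 14.4, 18.3, 90.6, 0, 91.5 and 42.8 FPKM, with a median of 24.8. HL1cm1 to HL1cm5 were all listed at 0. Of the 16 mMSCs, 12 had a value above 0, and these spread from 11.6 to 254 FPKM. Across mMSCs it ran against the log2 sum of FPKM in the cell, with r = -0.52 and rho = -0.44 (n = 16); whether this sum, which small RNA rows dominate, had a part in the pattern was not tested. Without mMSC9 and mMSC15, r was -0.50.

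Postn encodes periostin, a fasciclin-domain protein of periosteum and healing tissue (chromosome 3, 54359267 to 54391041). It ran from 1.24 FPKM in mMSC4 through a median of 223 to 460 in mMSC10, and was listed at 0 in HL1cm1 to HL1cm5. The lowest cells were mMSC4 (1.24), mMSC15 (8.16) and mMSC1 (11.3), well under the next cell, mMSC5 (66.0), and the SD was 2.37 around a mean of 6.64 (n = 16). Tnc encodes tenascin C, a hexameric glycoprotein of wounds, tendon and stem cell niches (chromosome 4, 63959785 to 64047015). It ran from 4.47 FPKM in mMSC1 through a median of 29.4 to 79.5 in mMSC14, with 0 in HL1cm1 to HL1cm5 and a mean of 4.60 ± 1.06 (SD, n = 16). Both genes were above 0 in every mMSC and in no HL1cm.

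**Figure D2:**
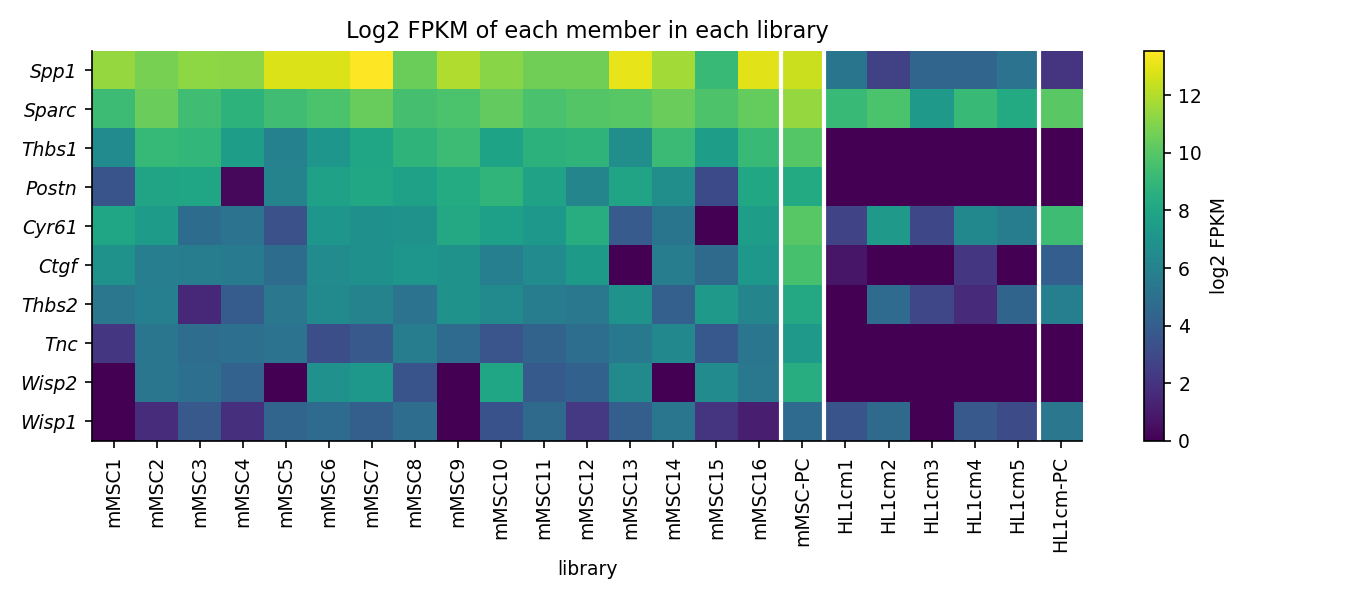
Heat map of log2 FPKM (colour, values under 1 FPKM set to 1) for the 10 genes (rows) in the 23 libraries (columns); white lines separate single mMSCs, mMSC-PC, single HL1cm and HL1cm-PC. The darkest squares among mMSCs are single genes in single cells, such as Cyr61 in mMSC15, Ctgf in mMSC13 and Wisp2 in mMSC1, 5, 9 and 14.

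From cell to cell, most mMSCs carried the whole set. Of 16 mMSCs, 10 had all 10 genes at 1 FPKM or more, 4 had 9 and 2, mMSC1 and mMSC9, had 8, whereas HL1cm had 4 to 6. The 6 genes Sparc, Spp1, Thbs1, Thbs2, Postn and Tnc were at 1 FPKM or more in every mMSC, against 15.3% of all genes. Most zeros were those of Wisp2 (4 cells) and Wisp1 (2 cells), and both cells at 0 for Wisp1, mMSC1 and mMSC9, were also at 0 for Wisp2. The cell mMSC14, at 0 for Wisp2, had the highest values of Sparc, Wisp1 and Tnc. The median SD of the 10 genes was 1.57, against 1.38 over the 10867 genes that reached 1 FPKM in at least 2 mMSCs. It takes the zeros of Ctgf, Cyr61, Wisp1 and Wisp2 at the limit of 1 FPKM, so it is less certain than the next values. Among genes that reached 1 FPKM in every mMSC, the median SD was 1.14 for the 6 members and 0.86 for all 2143.

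The 45 pairs of members were set against each other over the 16 mMSCs. Cells share their culture and device, and FPKM shares a scaling within each library, so the coefficients are descriptions. Pearson's r was over 0.5 for 2 of 45 pairs, and the median r was 0.15. Over all pairs of genes that reached 1 FPKM in at least 8 mMSCs, the share was 2.96% and the median 0.0041. Ctgf and Cyr61 had r = 0.61 and rho = 0.82, with r = 0.81 without mMSC13 and mMSC15, the cells in which one of the genes was at 0. Sparc and Postn had r = 0.63 and rho = 0.48, with r = 0.45 without mMSC4 and mMSC14. The lowest value was that of Spp1 and Thbs1, at r = -0.30. Spp1, the most abundant member, had r between -0.30 and 0.36 with the other 9.

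Over 6776 other genes that reached 1 FPKM in at least 8 mMSCs, the gene most like Sparc was Col1a1, the alpha 1 chain of type I collagen, with r = 0.91 and rho = 0.88 over 16 mMSCs. The value was 0.90 without mMSC4 and mMSC14, 0.93 without mMSC9 and mMSC15, and 0.89 to 0.92 in the other scalings. Fkbp7 (r = 0.88) and Tomm6 (r = 0.79) followed. As the largest of 6776 coefficients over 16 cells, such values are high in part through the choice itself. HL1cm did not share the relation in level, as Col1a1 was at a median of 0 FPKM where Sparc was at a median of 567. Among 100 relations of the members with 10 genes taken from the gene lists, r was over 0.5 for 9. The share was 2.96% over pairs of genes that reached 1 FPKM in at least 8 mMSCs. This is not a like set, since the 10 genes were picked, and Ankrd1 and Tgfb2 among them do not pass that filter. Sparc went with Col1a1, with Col1a2 (r = 0.75, rho = 0.85) and with the smooth muscle genes Acta2 (r = 0.65) and Tagln (r = 0.56). Postn went with Col1a1 (r = 0.62, rho = 0.54) and Acta2 (r = 0.53), and Thbs1 with Acta2 (r = 0.55). Wisp2 went with the MSC surface marker Ly6a (r = 0.71, rho = 0.73) and with Col1a1 (r = 0.57, rho = 0.68). In none of the 100 was r under -0.5.

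**Figure D3:**
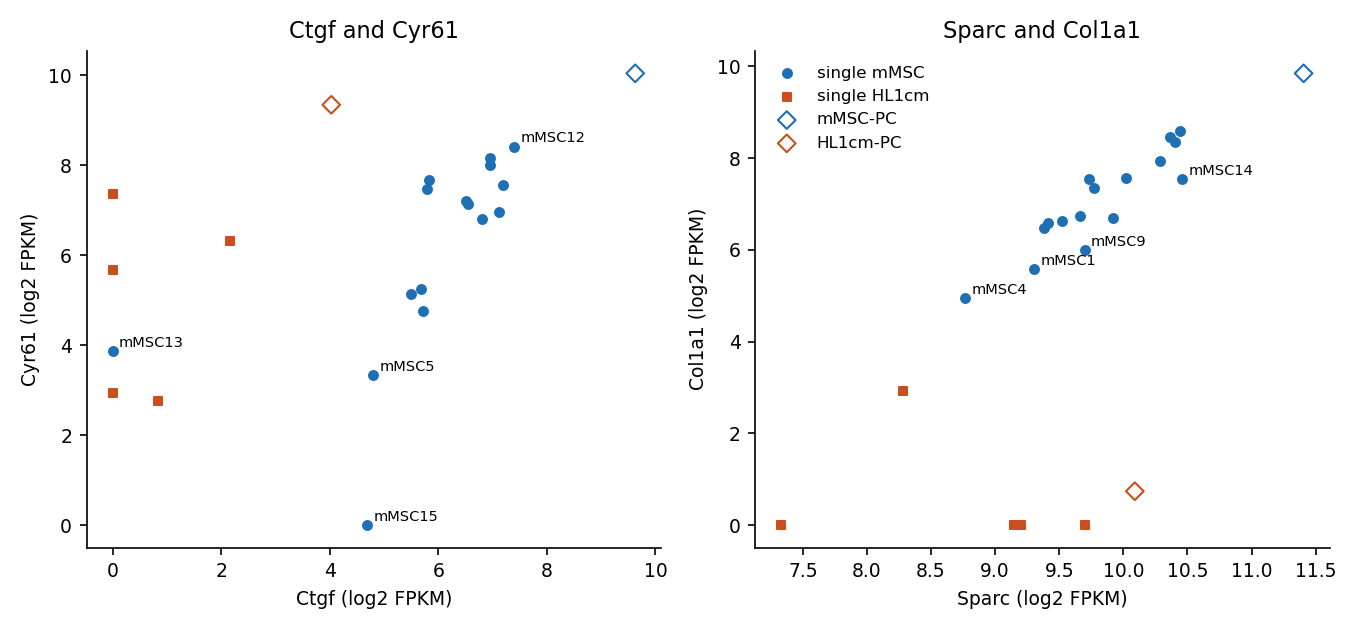
Log2 FPKM of Cyr61 against Ctgf (left) and of Col1a1 against Sparc (right) in single mMSCs (circles), single HL1cm (squares) and the population controls (diamonds); values under 1 FPKM were set to 1 and the named cells are those the text or the edges of the plot single out. In mMSCs both pairs go up together, with mMSC13 and mMSC15 on the zero lines of the left plot (r = 0.61 for Ctgf and Cyr61, 0.91 for Sparc and Col1a1).

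The other members had their nearest gene at lower or less stable values. Postn went with Itgb5, the integrin beta 5 subunit, at r = 0.89, and 0.63 without the 2 cells farthest from the median of Postn. Thbs1 went with Myl9, a regulatory light chain of smooth muscle and non-muscle myosin, at r = 0.82 (0.75 without 2 cells). Cyr61 and Rcn3 had r = 0.87 (0.71 without 2 cells), and Thbs2 and Pvt1 r = 0.89 (0.65). For Ctgf, the value of 0.85 with Ugcg was 0.52 without mMSC13, where Ctgf was at 0, against 0.84 without mMSC15, and was 0.39 without both. The nearest gene had r = 0.77 for Spp1 (Ube2f), 0.76 for Wisp2 (Tmem179b), 0.78 for Tnc (Gm5424) and 0.80 for Wisp1 (Atp6v0c-ps2, a pseudogene whose reads may be shared with its parent gene). Without 2 cells, these were 0.75, 0.81, 0.67 and 0.70.

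Each population control was 1 library and was compared with the single cells of its type. In mMSC-PC, Sparc was at 2715 FPKM, Spp1 at 5539, Thbs1 at 1010, Thbs2 at 293, Ctgf at 791, Cyr61 at 1054, Wisp1 at 26.4, Wisp2 at 342, Postn at 316 and Tnc at 155. For 7 of the 10 genes this was above every mMSC, against 9.75% of all genes, and against 11.4% of those that reached 1 FPKM in every mMSC. The exceptions were Spp1, Postn and Wisp1, which lay within the range of the cells. The excess over the highest cell was 4.71-fold for Ctgf, 3.09 for Cyr61, 1.95 for Tnc, 1.93 for Sparc, 1.89 for Thbs2, 1.60 for Thbs1 and 1.35 for Wisp2. Against the mean FPKM over the cells, taken to log2, the median difference of the 10 genes was 1.90. The median of all genes was 0, and that of genes that reached 1 FPKM in every mMSC was -0.22.

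The count depended on the scaling. Gapdh, a housekeeping gene, was at 551 FPKM in mMSC-PC and at 157 to 319 in mMSCs. Divided by Gapdh, only Ctgf (2.13-fold) and Cyr61 (1.29-fold) stayed above every mMSC, against 2.91% of all genes. The median difference was then 0.48, where that of all genes was -0.56 and that of genes above 0 in every mMSC was -1.65. With median-of-ratios factors the same 7 genes were above every mMSC (11.1% of all genes), and with TPM Wisp1 joined them, at 8 (14.2%). Ctgf and Cyr61 were thus above all single mMSCs under each of the 4 scalings.

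In HL1cm-PC, Sparc was at 1090 FPKM, Spp1 at 4.07, Thbs2 at 57.2, Ctgf at 16.3, Cyr61 at 649 and Wisp1 at 42.0. Of the 10 genes, 5 were above every HL1cm, against 28.9% of all genes. These were Cyr61 (3.97-fold over the highest cell), Ctgf (3.67), Thbs2 (2.13), Wisp1 (1.62) and Sparc (1.31), and they were the same 5 in all 4 scalings. Spp1 went the other way and was below every HL1cm. Cyr61 and Ctgf had the largest excess over the single cells in both cell types. The population controls were handled in bulk in parallel with the chip, so the bulk sample and the way it was handled cannot be told apart.

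**Figure D4:**
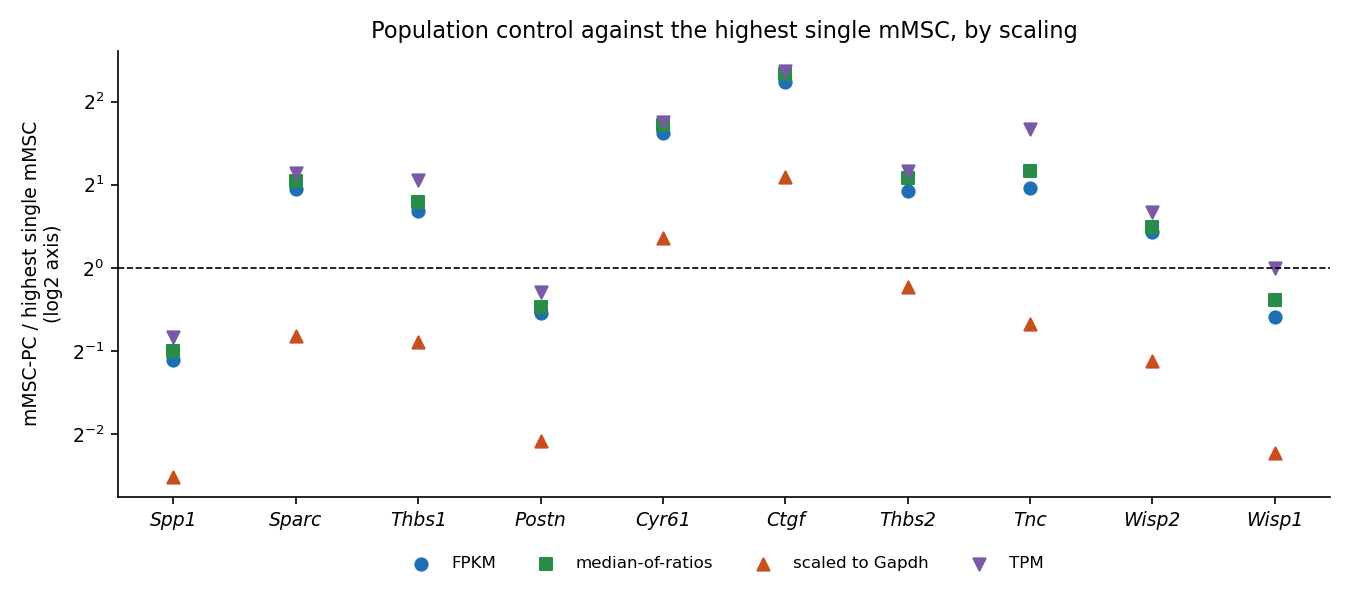
FPKM of mMSC-PC divided by that of the highest single mMSC (y axis, log2 axis) for the 10 genes (x axis) under 4 scalings of the libraries; the dashed line marks equality. Ctgf and Cyr61 lie above the line for every symbol, while Sparc, Thbs1, Thbs2, Tnc and Wisp2 fall below it when values are divided by Gapdh.

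Other matricellular genes were mostly listed at 0. Of 19 in the table, 10 were at 0 in all mMSCs, 2 were at 1 FPKM or more in all of them, 3 had a mean more than 1 higher in mMSCs and 1 lower. Fstl1, a secreted relative of SPARC, had a median of 979 FPKM in mMSCs and 489 in HL1cm (difference 1.44), and Smoc2, another SPARC relative, 59.7 and 0 (difference 5.12). Tnn, tenascin N, was above 0 in 10 mMSCs with a median of 2.84. Thbs4, a pentameric thrombospondin, was at 0 in all mMSCs and reached 26.3 FPKM in HL1cm. Comp, Tnr and Tnxb, relatives of the thrombospondin and tenascin members, were at 0 in every mMSC.

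Of 14 receptor genes, 7 were at 1 FPKM or more in all mMSCs, 7 were higher by more than 1 and 1 was lower, with a median difference of 1.06. Sdc4 (syndecan 4) had a median of 1533 FPKM in mMSCs and 25.3 in HL1cm, Cd44 (an osteopontin receptor) 285 and 0.82, Itgb1 138 and 47.0, and Cd47 (a thrombospondin receptor) 42.8 and 15.6. Cd44 and Sdc4 also belong to the list of MSC markers. Itgb5, Itgav and Lrp1, an endocytic receptor for thrombospondins, were the others higher in mMSCs. Cd36, the other thrombospondin receptor, was the gene that was lower, with 1 of 16 mMSCs at 1 FPKM or more and a median of 19.3 FPKM in HL1cm.

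Of the structural matrix genes, 8 of 10 were higher by more than 1 in mMSCs and 0 lower, with a median difference of 3.18. Bgn (biglycan) had a median of 747 FPKM in mMSCs, Col1a2 317, Lox (lysyl oxidase, which crosslinks collagen) 176, Col1a1 134 and Fn1 (fibronectin) 59.1. Dcn and Eln were at 0 in all mMSCs. Sparc was thus high in HL1cm where Col1a1, whose product binds SPARC, was above 0 in 1 of 5 cells.

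Upstream regulators differed less between the cell types. Of 18, 4 were higher by more than 1 in mMSCs (Yap1, Tgfb3, Tgfbr2 and Smad3), 2 were lower (Tead2 and Srf) and the median difference was 0.14. Yap1 had a median of 6.58 FPKM in mMSCs and 2.03 in HL1cm, and Ctnnb1 (beta-catenin) 77.5 and 79.0. Tgfb1, a gene picked on seeing its values, had 0 FPKM in all 23 libraries. Other YAP target genes did not share 1 direction, with 3 of 8 higher (Axl, Amotl1 and Crim1) and 1 lower. Axl had a median of 54.3 FPKM in mMSCs and 0 in HL1cm, while Ankrd1, a YAP target that is also a cardiac muscle gene, had 0 and 618.

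Smooth muscle markers were read because cultured MSCs often express them. Of 5 genes, 1 was higher in mMSCs and 3 were lower, with sums of 33.5 to 2545 FPKM in mMSCs and 957 to 4295 in HL1cm. Acta2, smooth muscle actin, was at 33.5 to 2222 FPKM in mMSCs and went with Sparc (r = 0.65, rho = 0.57), Thbs1 (r = 0.55, rho = 0.63) and Postn (r = 0.53, rho = 0.31) over the 16 cells; its part in their values was not tested. Of 6 endothelial markers, 5 were at 0 in all mMSCs. Proliferation genes were lower in mMSCs for 4 of 6 and higher for 0 of 6.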

How the data were processed

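Total RNA of single cells captured on a Fluidigm C1 device, and of both bulk populations, was amplified with a SMARTer kit and sequenced as paired reads. The authors aligned reads to mm10 with TopHat2 2.0.12 and estimated FPKM values with Cufflinks 2.2.1, and the deposited FPKM table was used as given. FPKM is relative to all mapped fragments and to exon length. A short row with a large share of the FPKM sum therefore need not hold a large share of the fragments. Whether such rows lowered the other genes of their library was not tested. Read counts were not used here, and no step of single reads could be recovered, so no count model, interval or floor was given.

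Values under 1 FPKM were set to 1 and log2 was taken (Python 3.11.15, numpy 2.4.6, pandas 2.3.3). All 23284 rows were processed; shares over all genes used the 14036 at 1 FPKM or more in at least 1 library. A difference of more than 1 in mean log2 was counted as past the limit, with no test. Correlations were Pearson's r and Spearman's rho over 16 mMSCs. Steps were tested on simulated data. Named genes were the members, up to 5 genes of each list by level (and genes present in HL1cm), those behind counts of 5 or fewer, and the most similar genes over mMSCs. The members and lists were chosen with earlier results of these data known. Coordinates and promoter windows were those of RefSeq on GRCm38.p6, the assembly of mm10; Ctgf, Cyr61, Wisp1 and Wisp2 stand there as Ccn2, Ccn1, Ccn4 and Ccn5. Alternatives were other limits, 3 other scalings and cells left out.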

Additional observations from a re-analysis of the deposited data

How the results depend on the processing

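Of 76 alternatives for the main results on the matricellular genes, 69 left the value within the spread or within 1.5 times the count, 7 moved it and 0 reversed it. Of 195 for single genes and for r of Sparc and Col1a1, 187 left it, 8 moved it and 0 reversed it. The spread for the difference of a single gene was its SD between mMSCs. For Cyr61 and Wisp1 this spread was larger than the difference itself, so a change of that size counted as left. Only a difference of more than 1 in size could be counted as reversed, so counts, SDs, r and the difference of Wisp1 could not. Some of the alternatives that left the value could not move it. The other filters for the median SD removed no member, and leaving out an HL1cm cannot change Thbs1, Wisp2, Postn or Tnc, at 0 in all of them. With values under 10 FPKM set to 10, the median difference between mMSCs and HL1cm was 1.76 (4.38 with the limit at 1), the median SD between mMSCs was 1.11 (1.57) and r of Ctgf and Cyr61 was 0.85 (0.61). From the log2 of mean FPKM, the median difference was 5.34. At 10 FPKM or more in all mMSCs, 3 members were counted and not 6. Divided by Gapdh, the median difference of mMSC-PC from the mean of the mMSCs was 0.48 (1.90), and 2 members and not 7 were above every mMSC; this alternative for the count was chosen after seeing the data. Leaving out each HL1cm in turn gave 7 to 9 members higher by more than 1, 7 without HL1cm3. The median difference was 4.38 each time, which says nothing of its stability. It lies between Wisp2 and Tnc, whose differences cannot change with the HL1cm used. Leaving out each mMSC in turn gave r of Ctgf and Cyr61 from 0.59 to 0.83, the highest without mMSC13. Without mMSC9 and mMSC15, 9 members were higher by more than 1 and 7 were at 1 FPKM or more in every mMSC. Values near the limit of 1 FPKM are the least certain, and the reads behind them were not used here. No paired analysis was possible because the result comes from no test and replicate numbers only name cells.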
